A study of Arvicanthis niloticus with 59 samples.

Results

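The thymus and the spleen of Arvicanthis niloticus, the Nile grass rat, which is active by day, were compared by RNA-seq as a central against a peripheral lymphoid organ. The comparison rests on 2 of the 59 libraries of the series, the thymus of animal T173F and the spleen of animal T3F, chosen by the organ named in their titles. The series holds biopsies of 22 organs from 4 animals, and its labels call all of the tissue healthy and give no treatment. The labels state no genotype, strain, age or sex for either animal, and both supplied an ovary library. With 1 library a side there is no replicate check of any difference, and no p-value is given. The organs also came from different animals, so organ and animal cannot be told apart.

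The thymus is the organ in which T cells are made. Its developing T cells, the thymocytes, cut and rejoin their receptor genes with the RAG recombinase and are selected on an epithelium that presents self peptides. The spleen is a filter of the blood: its white pulp holds B and T cells around small arteries, and its red pulp holds macrophages that take up aged red cells and return their iron. Rodent spleens also make red cells and platelets after birth. In a bulk library, fewer cells of a type and less RNA per cell cannot be told apart.

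Levels are given as TPM, which scales the RNA of each gene by its length and to a common total per library. The thymus library held 7391499 expected counts (the read counts that RSEM estimates per gene) and the spleen library 16359482. A gene was compared where either library had 1 TPM or more, which 14882 genes did, and was called higher in an organ where the ratio of TPM + 1 was at least 4. Folds printed for single genes are plain ratios of the TPM values. Where the lower library had 0 counts, the fold is a lower bound against a floor of 3 counts per library. Where it had 1 to 3 counts, the ratio is printed with its 95% counting interval, which covers counting error only.

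By this rule 1260 genes (8.47% of those compared) were higher in the thymus, 1286 (8.64%) were higher in the spleen, and 7917 lay within 2-fold either way. The median log2 ratio of thymus to spleen over all compared genes was 0.45 and not 0. The 2 haemoglobin genes in the table made up 26.9% of all TPM of the spleen, but 5.08% of its expected counts, and 0.127% of all TPM of the thymus. Once they were left out of the total, the spleen levels of all other genes rose 1.37-fold and the median log2 ratio was 0.01. The counts were then 953 genes higher in the thymus and 1725 in the spleen, so the thymus share of the calls moved from 49.5% to 35.6%. Moderate differences toward the thymus are therefore to be read against that median of 0.45, and counts of list members against the 17.1% of compared genes called in either direction. Another 472 genes lay between 3.5-fold and 4-fold and 330 between 4-fold and 4.5-fold.

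The ovaries of the same animals, 1 library each, show how far 2 libraries of T173F and T3F differed within an organ. Animal and the tissue taken cannot be told apart there. Of 14 smooth muscle genes, 8 were higher in the T173F ovary and 0 in that of T3F, and of 12 adipocyte genes 7 and 0. The pancreas, also sampled in both animals, was not used here. Between the ovaries, 1544 of 15934 compared genes (9.69%) were higher in T173F and 504 (3.16%) in T3F. Of the genes higher in the thymus, 193 were also higher in the T173F ovary, which is 15.32% of the thymus genes and 12.5% of the ovary genes. Of those higher in the spleen, 96 were also higher in the T3F ovary, 7.47% of the spleen genes and 19.05% of the ovary genes. At 64-fold or more, 1 of 74 thymus genes and 1 of 53 spleen genes were shared in this way. Few ovary genes differed by that much, 99 higher in T173F and 7 in T3F, so the shared genes were 1.01% and 14.29% of the ovary genes. Some libraries of the series carried markers of another organ than their label: hepatocyte genes were highest in the library labelled left lung lobe of T3F, with a mean log2(TPM + 1) of 12.27, and alveolar genes in that labelled liver of T3F, with a mean of 11.22. Those names are used below only as labels, and neither enters the comparison.

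**Figure D1:**
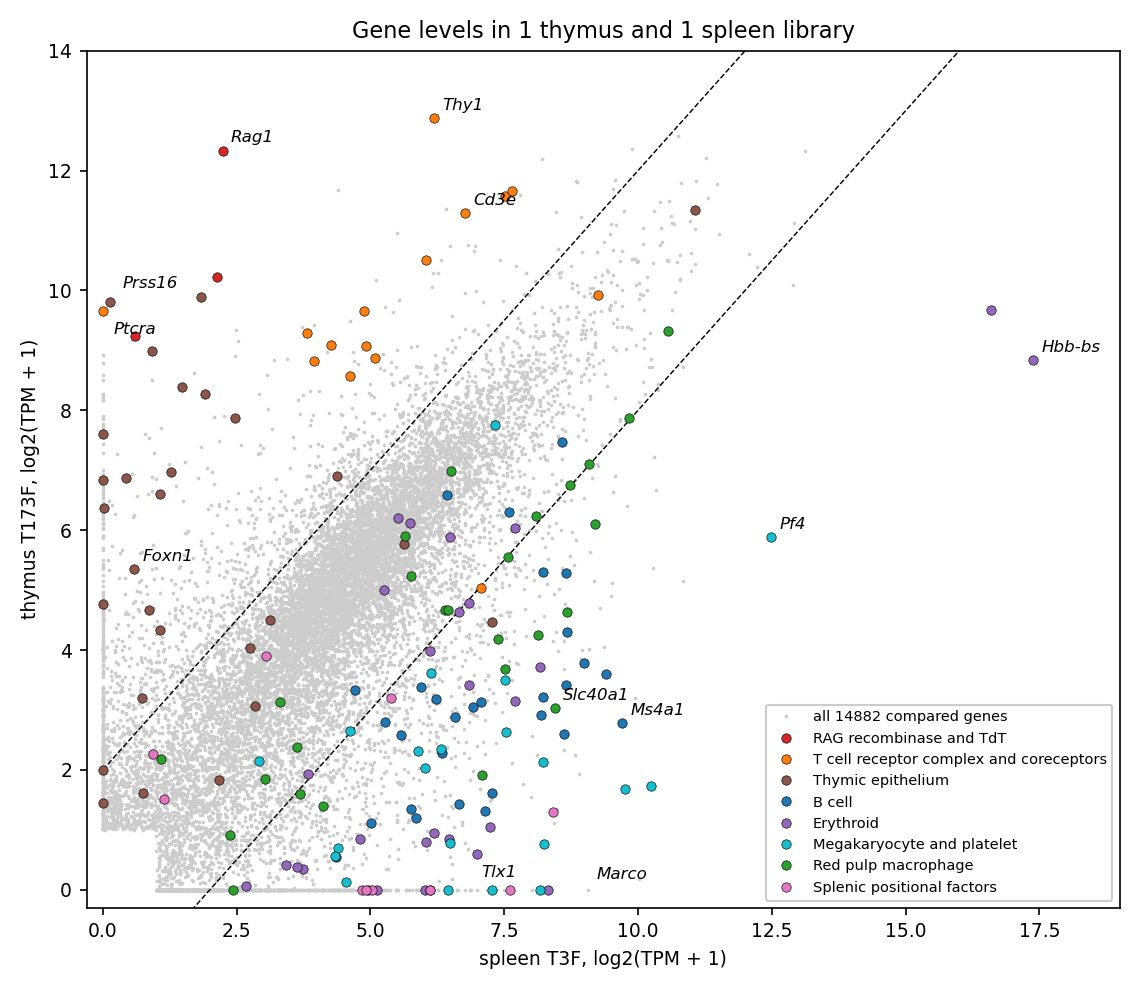
Level of each of the 14882 compared genes in the spleen (horizontal axis) and the thymus (vertical axis), as log2(TPM + 1), with 8 gene lists in colour; the dashed lines mark a 4-fold ratio of TPM + 1. Most recombinase, T cell receptor and thymic epithelial genes lie above the upper line, and most B cell, red cell, platelet and positional genes below the lower one, with Hbb-bs at 170563 TPM in the spleen.

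The 3 recombinase genes had the highest median log2 ratio of the 54 gene lists, 8.64, and their levels matched the label of the library. Rag1, which encodes the subunit of the recombinase that cuts DNA, stood at 5164 TPM in the thymus and 3.72 TPM in the spleen, a fold of 1387 with a 95% counting interval from 924 to 2189. Its partner Rag2 stood at 1191 and 3.39 TPM, 352-fold apart. Dntt encodes TdT, the polymerase that adds untemplated bases at the joints, and stood at 604 and 0.513 TPM. The thymus was the highest of 59 libraries for all 3 genes. Bone marrow of T3F, in which B cells rearrange their receptors, came between the organs, with 114.8 TPM of Rag1, 105.4 TPM of Rag2 and 23.9 TPM of Dntt. The spleen level of Rag1 rests on 23 counts and that of Rag2 on 13.

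The enzymes that rejoin the cut ends differed less. Of 13 compared genes of DNA end joining, 3 were higher in the thymus and 0 in the spleen, with a median log2 ratio of 0.78 against 0.45 for all genes. H2afx, the histone marked at breaks, stood at 1362 TPM in the thymus and 209 TPM in the spleen. Xrcc6, which encodes the end-binding protein Ku70, stood at 146 and 21.1 TPM, and Lig4, the ligase of the pathway, at 117.0 and 21.9 TPM. Dclre1c, the nuclease Artemis that opens the hairpin ends, was at 84.2 and 41.0 TPM, under 4-fold.

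Genes of the T cell receptor and its coreceptors were higher in the thymus in 13 of 15 cases, with a median log2 ratio of 4.46. Ptcra, the surrogate chain of the immature receptor, had 802 TPM in the thymus and no count in the spleen or the bone marrow, which puts the thymus at least 472-fold higher. No other library reached more than 1.39 TPM of it. The signalling chains of the receptor were present in both organs. Cd3e stood at 2508 TPM in the thymus and 107.9 TPM in the spleen, 23.3-fold apart. Cd3d stood at 3070 and 181 TPM, and Cd3g at 3235 and 199 TPM. These chains differed by a similar factor, between 16.3-fold for Cd3g and 23.3-fold for Cd3e, with Cd247 at 22.3-fold. The spleen was the second highest of 59 libraries for Cd3e.

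The coreceptors differed more than the CD3 chains. Cd4 had 809 TPM in the thymus and 28.4 TPM in the spleen, 28.5-fold apart. Cd8a had 451 and 14.4 TPM, 31.3-fold apart, and Cd8b1 had 628 and 13 TPM, 48.3-fold apart. The counting intervals of Cd8a, from 28.8 to 34.0, and of Cd8b1, from 42.4 to 55.2, did not overlap, but they cover counting error only. Whether the folds of the coreceptors and the CD3 chains differ beyond this pair of libraries was not tested. Thy1, a surface protein of rodent thymocytes and of neurons, was the most abundant gene called higher in the thymus, at 7506 TPM against 71.6 TPM in the spleen. It was also higher in the ovary of T173F than in that of T3F, at 304 against 65.2 TPM. Cd2, an adhesion receptor of T and other lymphocytes, stood at 971 and 611 TPM, under 4-fold. Cd1d1, which presents lipids to NKT cells, was the member higher in the spleen, at 31.8 TPM in the thymus and 132 TPM in the spleen.

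Downstream of the receptor, 14 of 20 signalling genes were higher in the thymus and 1 in the spleen, with a median log2 ratio of 2.71. Lck, the kinase that starts the signal, had 917 TPM in the thymus and 45.3 TPM in the spleen. Lat, the membrane adaptor, had 3079 and 220 TPM. The widest gap of the list was in Arpp21, a gene of thymocytes and neurons, at 361 against 0.899 TPM, 402-fold. The member higher in the spleen was Tec, a kinase also used by B and myeloid cells, at 2.90 TPM in the thymus and 31.1 TPM in the spleen; it was named after its values were seen.

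Transcription factors of thymocytes followed, with 15 of 24 higher in the thymus, 2 in the spleen and a median log2 ratio of 2.20. Tcf7, the T-lineage factor TCF1, stood at 1993 TPM in the thymus and 44.4 TPM in the spleen, 44.9-fold apart. Bcl11b, which holds cells to the T lineage, stood at 720 and 23.7 TPM. Gata3, needed for CD4 cells, stood at 310 and 6.54 TPM, 47.4-fold apart. Myb stood at 461 and 9.82 TPM, and also differed between the ovaries of the same animals, at 26.5 TPM in T173F and 0.194 TPM in T3F. Ets1 was abundant in both organs, at 2382 and 491 TPM. The factors higher in the spleen, Hhex at 1.29 against 57.9 TPM and Lyl1 at 16.7 against 132 TPM, are factors of progenitor, B and red cells and were named after their values were seen.

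The Notch pathway, which directs progenitors to the T lineage, did not stand apart as a group: 1 of 21 genes was higher in the thymus and 2 in the spleen, and its median log2 ratio of 0.18 was below the 0.45 of all genes. Rbpj, the DNA-binding partner of Notch, had 154 TPM in the thymus and 36.8 TPM in the spleen. With haemoglobin left out, no gene of the list was called higher in the thymus. Dll4, the ligand of the thymic epithelium, stood at 15.4 and 5.75 TPM, under 4-fold. Dll1, the ligand known for marginal zone B cells of the spleen, was 8.71-fold higher in the spleen, at 2.58 and 22.4 TPM. Hes5, a Notch target, had no count in the thymus and 13.1 TPM in the spleen, at least 3.36-fold higher there.

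**Figure D2:**
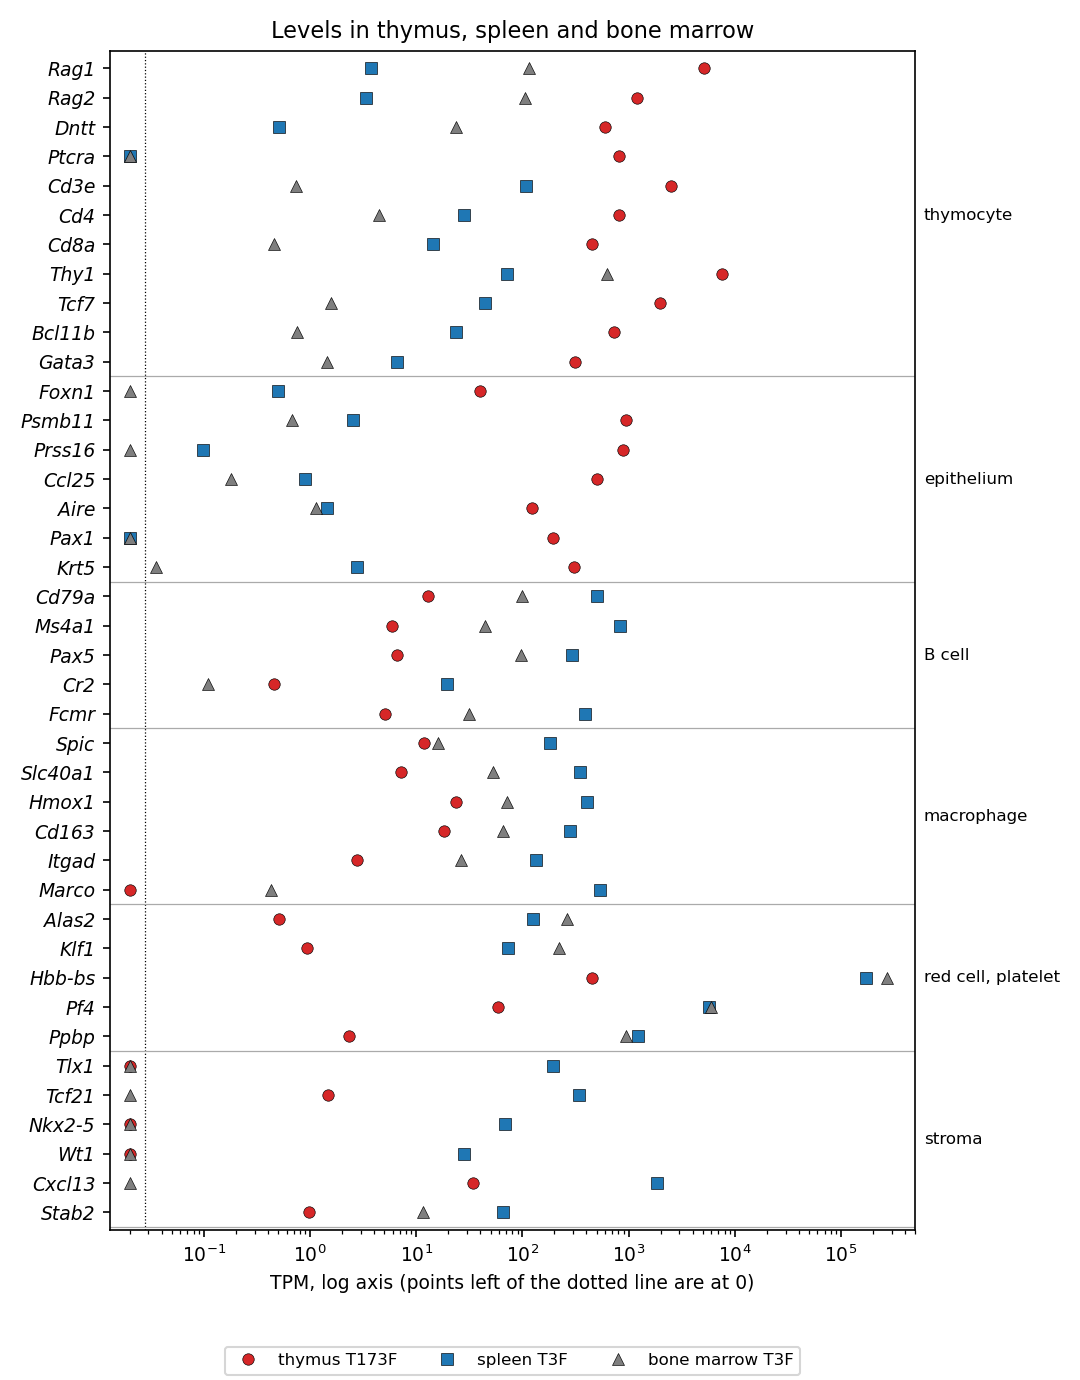
TPM on a log axis of lineage genes in the thymus of T173F, the spleen of T3F and the bone marrow of T3F, grouped by cell type; points left of the dotted line are at 0. Rag1, Rag2 and Dntt run from spleen through bone marrow to thymus, Marco and Tlx1 have no count in the thymus, and the red cell and platelet genes of the spleen lie nearer to the bone marrow than to the thymus.

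Genes of the thymic epithelium, the stroma on which T cells are selected, were higher in the thymus in 18 of 28 compared cases and in the spleen in 1, with a median log2 ratio of 4.28, or 5.08 with the genes at 0 counts held at their bounds. Foxn1, the factor that makes the organ, had 39.7 TPM in the thymus and 0.501 TPM in the spleen, 79.3-fold apart. The genes of the cortical epithelium reached higher levels. Psmb11, a proteasome subunit of cortical cells, stood at 951 TPM in the thymus and 2.55 TPM in the spleen, 372-fold apart. The protease Prss16 stood at 892 TPM against 3 counts in the spleen, a ratio of 9132 with a counting interval from 3124 to 44292. Ccl25, a chemokine that draws progenitors in, stood at 508 and 0.897 TPM, and the duodenum of T426 was higher still at 1331 TPM.

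A medullary marker was present too. Aire, which lets medullary cells express genes of other tissues, had 123.9 TPM in the thymus and 2 counts in the spleen, a ratio of 86.5 with an interval from 22.9 to 732. Pax1, another gene of the epithelial list, had 194 TPM in the thymus and no count in the spleen, at least 764-fold higher, and no other library passed 0.416 TPM. Epithelial keratins were also higher in the thymus, with Krt5 at 308 against 2.74 TPM and Krt8 at 233 against 4.53 TPM. These keratins differed the same way between the ovaries, with Krt8 at 434 TPM in T173F and 22.1 TPM in T3F. Without the genes that were called in the same direction there, 12 epithelial genes remained higher in the thymus, among them Foxn1, Psmb11, Prss16, Ccl25, Aire and Pax1. A gene under 1 TPM in both ovaries stays by this rule whatever the animals do, so its staying says nothing about them. Prss16, at 0.14 and 0.12 TPM in the ovaries, was such a gene, and so was Pax1, which passed 0.416 TPM in no library but the thymus. Of the 30 genes of the list, 23 could be compared in the ovaries. Cd40, a receptor of B cells as well as of epithelium, was the member higher in the spleen, at 21.2 against 154 TPM. Il7, the cytokine that thymocytes need, stood at 21.7 and 7.73 TPM, under 4-fold.

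**Figure D3:**
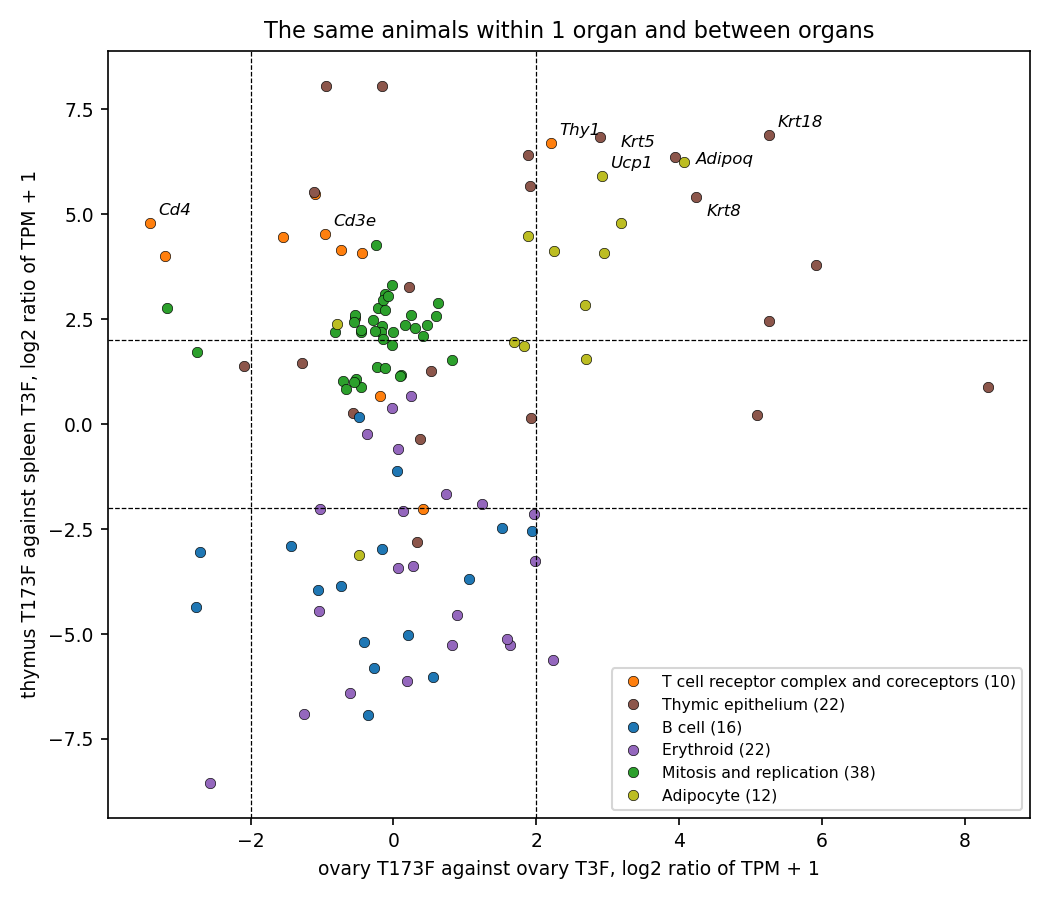
Log2 ratio of TPM + 1 between thymus T173F and spleen T3F (vertical axis) against the ratio between the ovaries of the same animals (horizontal axis) for 6 gene lists, limited to genes at 1 TPM or more in either ovary, with the number drawn in brackets; dashed lines mark 4-fold. Adipocyte genes and keratins such as Krt18 and Krt8 lie in the upper right, where both organs of T173F were higher, while mitosis genes lie near 0 on the ovary axis.

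Genes of DNA replication and mitosis were higher in the thymus in 26 of 38 cases and in the spleen in none, with a median log2 ratio of 2.23. Mki67, expressed by cycling cells, stood at 1460 TPM in the thymus, 170 TPM in the spleen and 594 TPM in the bone marrow. Uhrf1, which carries DNA methylation through replication, stood at 245 and 11.8 TPM, 20.7-fold apart. Top2a stood at 198 and 28.3 TPM, and the replicative helicase gene Mcm6 at 319 and 68.8 TPM. All 26 stayed after the genes shared with the ovaries were left out, whereas 14 passed 4-fold once haemoglobin was left out of the totals. The list had no member higher in the spleen under either. Ccnd3, the D-type cyclin of thymocytes, stood at 536 and 57.9 TPM, 9.26-fold apart. Of 16 genes of purine and nucleotide salvage, on which lymphocytes depend, 3 were higher in the thymus and 0 in the spleen. That share was near the 17.1% of all compared genes called in either direction. The median log2 ratio of -0.10 was below that of all genes. Those 3 were the kinase gene Dck, at 519 against 85.3 TPM, Ada, at 80.1 against 12.6 TPM, and Rrm2, which serves the making of deoxynucleotides, at 95.4 against 19.5 TPM. With haemoglobin left out, 2 genes of the salvage list were higher in the thymus and 1 in the spleen.

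Markers of mature T cells had a median near that of all genes. Of 16 genes of recent emigrants and mature T cells, 3 were higher in the thymus and 0 in the spleen, and the median log2 ratio was 0.65. Ccr9, the receptor for Ccl25, had the widest gap of the 3, at 477 against 4.57 TPM, 104.4-fold, and the others were Cd40lg and Ccr4. S1pr1, the receptor by which T cells leave the thymus, lay the other way at 78.6 TPM in the thymus and 289 TPM in the spleen, 3.68-fold and so not called. Ccr7 stood at 265 and 165 TPM. With haemoglobin left out, 1 gene of the list was higher in the thymus and 3 in the spleen. Of 8 genes of regulatory T cells, 3 were higher in the thymus and 1 in the spleen, with a median of 1.73. Ctla4, an inhibitory receptor, had 260 TPM in the thymus and 7.47 TPM in the spleen, 34.8-fold apart, while Foxp3, the factor that defines these cells, had 22.5 and 7.05 TPM, under 4-fold.

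B cell genes lay the other way. Of 29 compared genes, 25 were higher in the spleen and 0 in the thymus, with a median log2 ratio of -3.94, and the spleen was the highest of 59 libraries for 24. Ms4a1, which encodes CD20, stood at 5.86 TPM in the thymus and 834 TPM in the spleen, 142-fold apart. Cd79a and Cd79b, the signalling chains of the B cell receptor, stood at 12.8 against 505 TPM and at 9.68 against 402 TPM. Pax5, the factor of B cell identity, stood at 6.58 and 292 TPM, 44.3-fold apart. Cr2, complement receptor 2 of mature B cells and follicular dendritic cells, stood at 0.459 TPM in the thymus, 19.6 TPM in the spleen and 0.108 TPM in the bone marrow. The bone marrow had more Pax5 than the thymus, at 97.7 TPM, and less Cr2. Under 4-fold were Cd37, Pou2af1, Tnfrsf13b and Pou2f2. The constant regions Ighm, Ighd and Igkc were not in the table used here.

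Finer B cell states were mixed. Of 14 genes of marginal zone and follicular B cells, 7 were higher in the spleen and 0 in the thymus, with a median log2 ratio of -1.97. Ccr6 stood at 40.6 TPM in the thymus and 206 TPM in the spleen, and S1pr3, a receptor of marginal zone B cells, at 10.2 and 80.4 TPM. Of 8 genes of the germinal centre, where B cells mutate their receptors, 0 were higher in the spleen and 3 in the thymus, with a median of 1.5, and none of the 3 is particular to B cells. They were S1pr2 at 135 against 29.5 TPM, Fas at 80.8 against 13.9 TPM and Il21, which rests on 4 counts in the thymus and 1 in the spleen. Bcl6, the factor of the germinal centre, stood at 28.6 and 7.11 TPM, under 4-fold. On CPM values (expected counts scaled to a common total) with TMM library sizes, 0 germinal centre genes were higher in the thymus and 1 in the spleen.

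Among plasma cell genes, Jchain, which links secreted antibodies, was 31.0-fold higher in the spleen, at 40.1 against 1242 TPM. Of the 13 genes of the list, 2 were higher in the spleen, 1 was higher in the thymus and 10 lay under 4-fold, with a median log2 ratio of -1.01. The member higher in the thymus was Edem1, which acts on misfolded proteins in many cell types, at 248 against 31.7 TPM. Of 9 genes of pre-B cells, 3 were higher in the thymus and 2 in the spleen, and the median was -1.38, or 0 with the gene at 0 counts held at its bound. The 3 were Rag1, Rag2 and Dntt, described above with the thymocyte genes. The surrogate light chain genes Igll1 and Vpreb2, also of pre-B cells, were at 465 against 1214 TPM and at 39.6 against 221 TPM. Their levels are uncertain, since they resemble the lambda light chain and RSEM shares reads between similar transcripts. Cd24a, another gene of the pre-B list and not particular to B cells, was 35.6-fold higher in the spleen, at 15.3 against 545 TPM.

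Macrophage genes of the red pulp were higher in the spleen in 11 of 26 cases and in the thymus in none, with a median log2 ratio of -1.98. Spic, the factor of red pulp macrophages, stood at 11.8 TPM in the thymus and 181 TPM in the spleen, 15.4-fold apart, and the spleen was the highest of 59 libraries. Slc40a1, the iron exporter ferroportin, stood at 7.19 and 348 TPM, 48.4-fold apart. Hmox1, which breaks down haem, stood at 23.8 and 407 TPM, and Cd163, a receptor for haemoglobin, at 18.1 and 281 TPM. Itgad, an integrin of these macrophages, stood at 2.77 and 134 TPM, 48.4-fold apart. Each of these 5 was over 15-fold higher in the spleen.

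The other 15 genes of the list lay under 4-fold. The complement gene C1qa stood at 136 TPM in the thymus and 544 TPM in the spleen, 3.99-fold, and C1qb at 643 and 1506 TPM. Timd4, a receptor for dying cells, was at 126 TPM in the thymus and 90.1 TPM in the spleen, and Cd68 at 58.9 and 48.9 TPM, neither called. With haemoglobin left out, 17 of the 26 were higher in the spleen. Of 23 genes of iron and haem recycling, 8 were higher in the spleen and 15 under 4-fold, with a median log2 ratio of -1.43. Ferritin heavy chain Fth1, at 423.9 and 1177 TPM, was among the latter.

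Marginal zone macrophages gave the widest macrophage gap. Marco, a scavenger receptor of these cells, had no count in the thymus against 5348 counts and 537 TPM in the spleen, at least 579-fold higher. The kidney artery library of T3F had more still, at 715 TPM. In all, 5 of the 8 genes of this list were higher in the spleen, with a median log2 ratio of -2.29, including Nr1h3, the sterol-sensing factor LXR-alpha, at 6.26 against 66.9 TPM.

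Dendritic cell genes were called in both directions. Of 21 compared genes, 6 were higher in the spleen, 3 in the thymus and 12 under 4-fold, with a median log2 ratio of -0.67. Those higher in the spleen include the integrin Itgax (CD11c), at 18.0 against 124 TPM, the factor Zbtb46, at 3.96 against 49.1 TPM, and Batf3, at 22.6 against 192 TPM. The 3 higher in the thymus were Ccl22, Ccl17 and Cd83. Ccl22, a chemokine, stood at 649 TPM in the thymus against 2 counts in the spleen, a ratio of 141 with an interval from 37.9 to 1185. Ccl17, its close relative, stood at 394 TPM against 1 count, and Cd83 at 261 and 58.9 TPM. Both chemokines attract cells with Ccr4, which was 4.51-fold higher in the thymus, at 57.1 against 12.7 TPM. With haemoglobin left out, neither Ccr4 nor Cd83 was called.

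Genes of antigen presentation to CD4 cells were present in both organs at high levels. Cd74, the invariant chain, had 1559 TPM in the thymus and 4283 TPM in the spleen, the highest pair of all 59 libraries. Of 14 compared genes of the list, 4 were higher in the spleen, including H2-Ab1 at 322 against 1328 TPM, and 2 in the thymus, with a median log2 ratio of -1.60. With haemoglobin left out, 9 were higher in the spleen. The 2 higher in the thymus are proteases of the cortical epithelium, Prss16 and Ctsl, the latter at 1256 TPM against 71.3 TPM, 17.6-fold. Ctss, the corresponding protease of B and dendritic cells, lay the other way at 181 and 524 TPM, 2.90-fold. Of 16 genes of presentation to CD8 cells, Psmb11 alone passed 4-fold, and the median was 0.46.

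Innate sensing and killing leaned to the spleen. Of 17 Toll-like receptors and adaptors, 9 were higher in the spleen and 0 in the thymus, with a median log2 ratio of -2.41. Tlr4, the sensor of lipopolysaccharide, stood at 10.3 and 141 TPM. Of 18 genes of complement and Fc receptors, 7 were higher in the spleen and 0 in the thymus, with a median of -1.76, or -1.40 with the genes at 0 counts held at their bounds. The Fc receptor chain Fcer1g stood at 26.1 and 397 TPM. Among 18 genes of NK and cytotoxic cells, 7 were higher in the spleen and 0 in the thymus, with a median of -1.51. Tbx21, the factor T-bet, stood at 6.04 and 97.3 TPM, 16.1-fold apart. Gzma, a granule protease, had 392 TPM in the spleen and 2 counts in the thymus, a ratio of 97.5 with an interval from 26.9 to 807. Klrk1, the receptor NKG2D, stood at 61.4 and 147 TPM, under 4-fold.

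Red cell and platelet genes were higher in the spleen, and for those named here it stood nearer, by fold, to the bone marrow than to the thymus. Of 29 compared erythroid genes, 23 were higher in the spleen and 0 in the thymus, with a median log2 ratio of -3.96. Hbb-bs, a beta-globin, stood at 455 TPM in the thymus, 170563 TPM in the spleen and 270322 TPM in the bone marrow. Globin RNA is also carried by young circulating red cells. Alas2, the first enzyme of haem synthesis in red cells, stood at 0.507 TPM in the thymus, 126 TPM in the spleen and 261 TPM in the bone marrow. Klf1, a red cell factor, had 3 counts in the thymus, 72.4 TPM in the spleen and 223 TPM in the bone marrow. The spleen thus ranked between thymus and bone marrow for each of these, and it was the highest of 59 libraries for 0 of the 29 genes.

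Of 21 genes of megakaryocytes and platelets, 18 were higher in the spleen and 0 in the thymus, with a median log2 ratio of -4.40. Pf4, platelet factor 4, stood at 58.3 TPM in the thymus, 5761 TPM in the spleen and 6005 TPM in the bone marrow. Ppbp, another platelet chemokine, stood at 2.34, 1212 and 949 TPM, and the platelet tubulin Tubb1 at 2.22, 860.0 and 993 TPM. For these genes the spleen came close to the bone marrow. Granule genes of neutrophils did not: S100a9 stood at 83.4 TPM in the thymus, 890 TPM in the spleen and 51586 TPM in the bone marrow. Of 16 such genes 10 were higher in the spleen and 1, Mmp9, in the thymus, at 23.6 against 1.37 TPM, and the median log2 ratio was -2.65, or -2.36 with the genes at 0 counts held at their bounds.

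**Figure D4:**
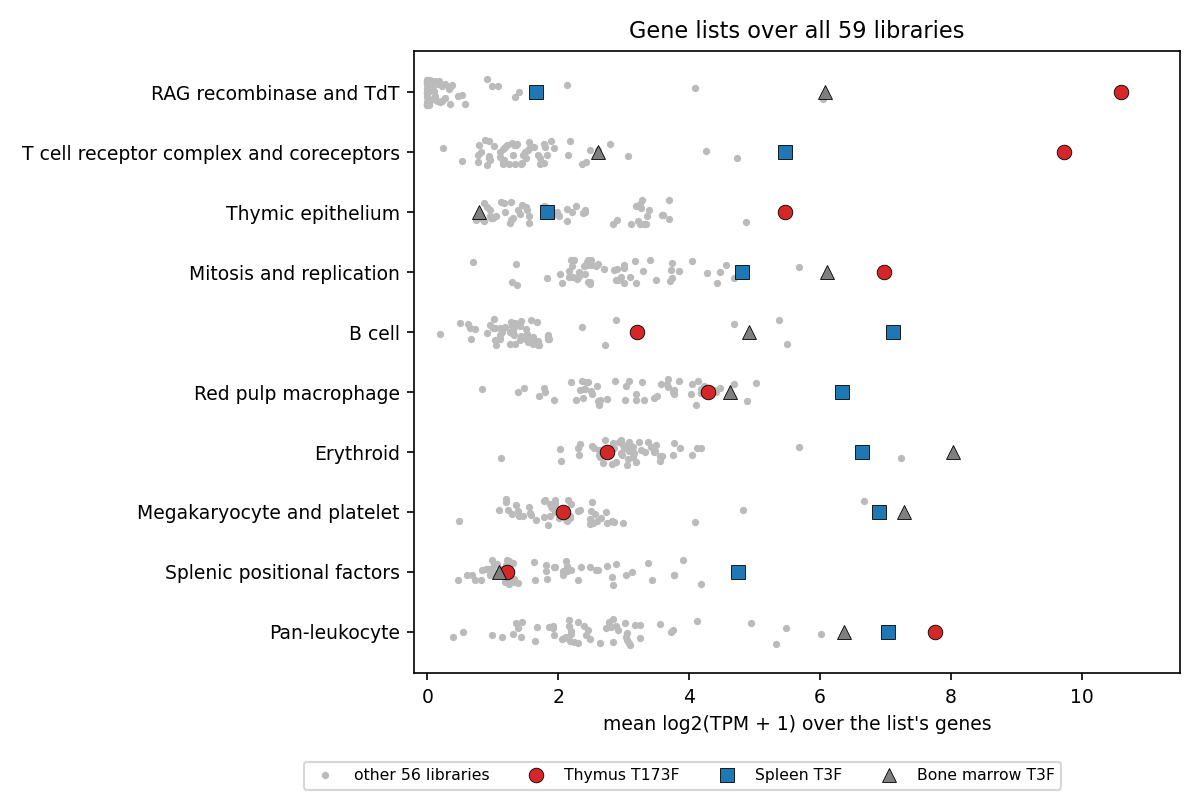
Mean log2(TPM + 1) over the genes of 10 lists in each of the 59 libraries; red, blue and grey symbols mark thymus T173F, spleen T3F and bone marrow T3F, small points the other 56. The thymus stands first for the recombinase list (10.60) and the T cell receptor list (9.73), the spleen first for B cell genes (7.12) and positional factors (4.74), and the bone marrow first for erythroid genes (8.04).

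Transcription factors known for placing and building the spleen in the embryo were found in the spleen library. Of 10 compared, 7 were higher in the spleen and 0 in the thymus, with a median log2 ratio of -4.88, or -4.01 with the 5 genes at 0 counts held at their bounds. Tlx1, without which the spleen does not form, had 195 TPM in the spleen and no count in the thymus, at least 142-fold higher, and the next of the 59 libraries had 4.21 TPM. Nkx2-5 had 68.2 TPM in the spleen and no count in the thymus, at least 12.99-fold higher, and is shared with the heart, where it reached 842 TPM. Tcf21 had 338 TPM in the spleen and 3 counts in the thymus. Nkx2-3, which shapes splenic vessels, and Nkx3-2 and Wt1 had no count in the thymus and 31.5, 29.2 and 27.9 TPM in the spleen.

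The stroma and its chemokines differed by zone. Cxcl13, which draws B cells into follicles, stood at 34.5 TPM in the thymus and 1843 TPM in the spleen, 53.4-fold apart. The T cell zone chemokines did not differ in that way. Ccl21a stood at 2592 and 2141 TPM, a ratio of 1.21 that lies below the 1.37-fold shift given by haemoglobin, and Ccl19 at 968 and 248 TPM, 3.90-fold. Cxcl12, which holds progenitors, stood at 148 and 1260 TPM. Of 21 stromal genes, 8 were higher in the spleen and 2 in the thymus, with a median log2 ratio of -1.27. Those 2 were Bst1, an enzyme of stromal and lymphoid cells, at 318 against 15.4 TPM, and Tnfsf11 (RANKL), which thymocytes use to mature the medulla, at 66.0 against 9.33 TPM.

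Chemokine ligands as a class split almost evenly, with 8 of 27 higher in the thymus and 10 in the spleen and a median log2 ratio of 0.28, or 0 with the genes at 0 counts held at their bounds. Besides Ccl25, Ccl22 and Ccl17, the ligands higher in the thymus had lower levels. Among 26 chemokine and sphingosine phosphate receptors, 4 were higher in the thymus and 10 in the spleen, with a median of -1.55. Cxcr5, the receptor for Cxcl13, followed its ligand, at 38.2 TPM in the thymus and 401 TPM in the spleen. Cxcr4, the receptor for Cxcl12, stood at 1053 and 434 TPM, under 4-fold and opposite to its ligand.

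Endothelial genes were higher in the spleen in 14 of 23 cases and in the thymus in none, with a median log2 ratio of -2.58. Stab2, a scavenger receptor of sinus endothelium, stood at 0.986 and 65.3 TPM, 66.3-fold apart, with the spleen the highest of 59 libraries. Plvap, of fenestrated vessels, stood at 34.8 and 579 TPM. Pecam1, shared by endothelium and leukocytes, was not called, at 197 and 109.1 TPM. Of 25 fibroblast genes 3 were higher in the thymus, 1 of them Thy1, and 4 in the spleen, more than the 17.1% of all compared genes, with a median of -0.33. Genes of smooth muscle, which forms the splenic capsule and trabeculae, gave 5 of 13 higher in the spleen and a median of -0.70, including Myl9 at 11.0 against 146 TPM, whereas Acta2, at 85.8 and 140 TPM, was under 4-fold.

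**Figure D5:**
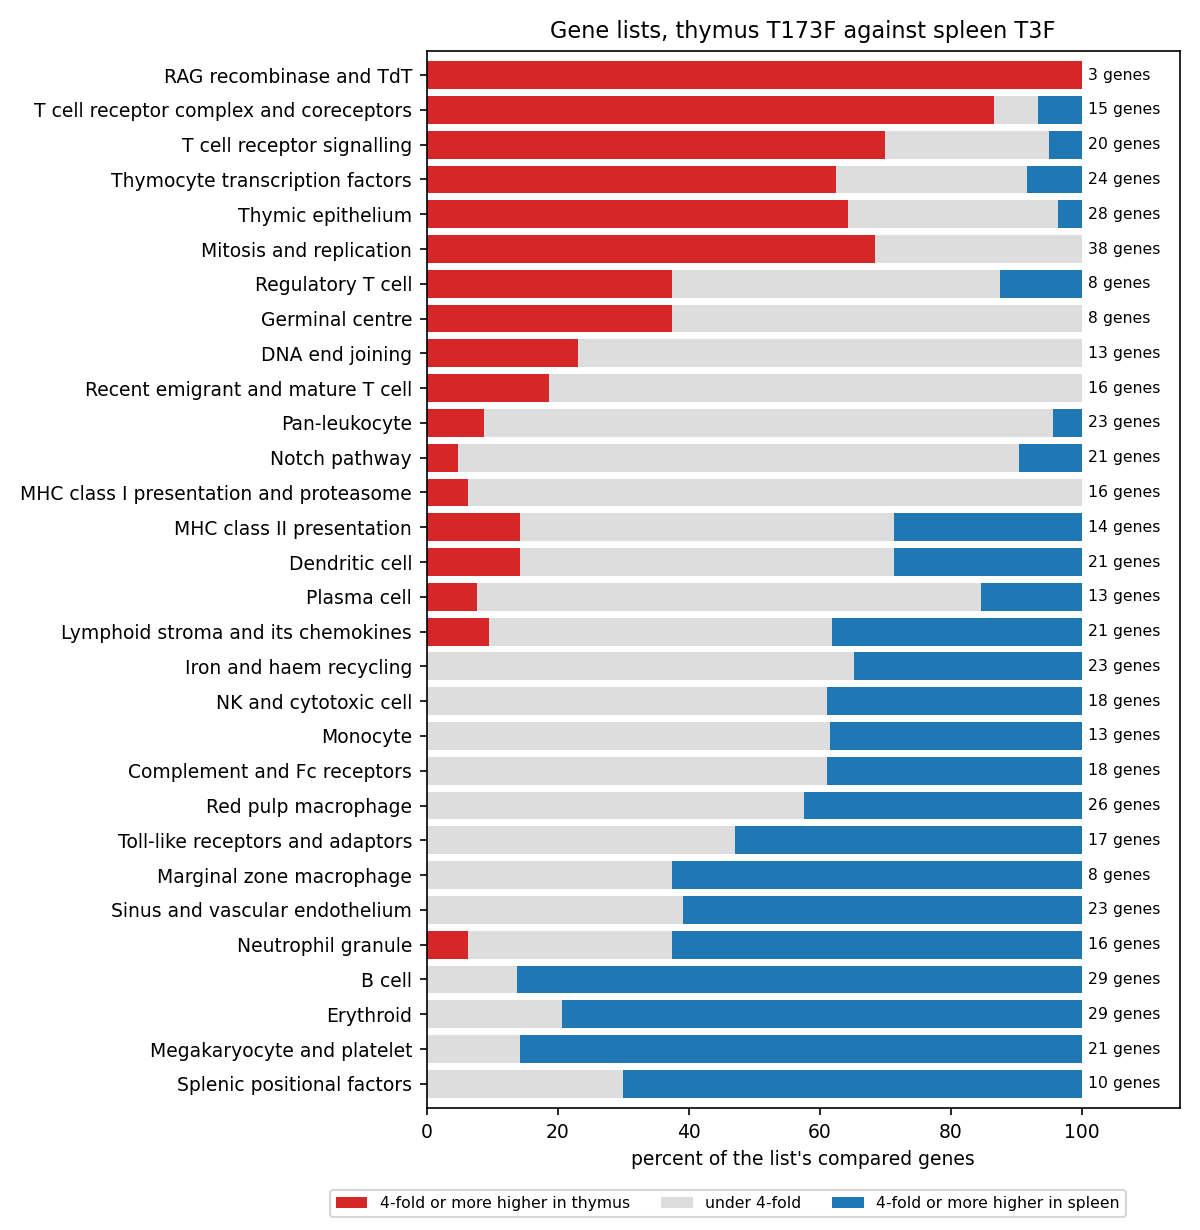
Share of the compared genes of 30 lists that were at least 4-fold higher in the thymus (red), at least 4-fold higher in the spleen (blue) or neither (grey), on the ratio of TPM + 1; the number of compared genes stands at the right. Recombinase and T cell lists are mostly red, B cell, erythroid, platelet and positional lists mostly blue, and pan-leukocyte and Notch lists mostly grey.

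Genes common to all leukocytes were called about as often as other genes. Of 23 pan-leukocyte genes, 2 were higher in the thymus and 1 in the spleen, against 17.1% of all compared genes in either direction, and their median log2 ratio of 0.92 was above the 0.45 of all genes. Rac2, a GTPase of blood cells, stood at 1616 and 830 TPM, and Laptm5 at 1599 and 598 TPM. The share of apoptosis genes called was also near that of all genes, at 4 of 25 higher in the thymus and 1 in the spleen, with a median of 0.53. Bcl2l1, which keeps double-positive thymocytes alive, was 4.63-fold higher in the thymus, at 221 against 47.7 TPM, and 2 apoptosis genes passed 4-fold there with haemoglobin left out, against 4 before. On CPM values with TMM library sizes 1 apoptosis gene was higher in the thymus and 2 in the spleen. Of 31 cytokines and their receptors 2 were higher in the thymus and 4 in the spleen, again near the share of all genes, with a median of -0.43, or -0.11 with the genes at 0 counts held at their bounds. The common gamma chain Il2rg was at 232 and 130 TPM.

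Several genes outside the lists ranked among the largest differences. In the thymus these include Npy, a neuropeptide gene, at 580 TPM against 2 counts, a ratio of 1283 with an interval from 354 to 10608. Slc46a2, a transporter of thymic stroma, stood at 286 TPM against no count, and the non-glandular stomach of T3F was higher still at 389 TPM. The guanylate-binding protein gene Gbp10 stood at 4688 TPM in the thymus and 294 TPM in the spleen, and no other library passed 104.3 TPM. Gm11127, a predicted gene of the mouse annotation, stood at 3272 and 19.96 TPM, 164-fold apart. Gbp10 has close relatives of similar sequence, so its level is uncertain. The chromatin protein gene Hmgb2 stood at 3627 and 458 TPM, and Stmn1, which acts on microtubules, at 3570 and 465 TPM.

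In the spleen, Klk14, a kallikrein protease, had 1043 TPM against 1 count in the thymus, a ratio of 7753 with an interval from 1391 to 306222, and the highest of the other libraries had 213 TPM. Tfpi, the inhibitor of tissue factor, stood at 1.17 TPM in the thymus and 344 TPM in the spleen. Selp, P-selectin of platelets and endothelium, had no count in the thymus and 154 TPM in the spleen, at least 54.4-fold higher. Gzme, a granzyme, had no count in the thymus and 162 TPM in the spleen, close to the 146 TPM of the uterus. Some large ratios rest on few reads. Iltifb, Olfr1100, Olfr1512 and Olfr1382 had between 308 and 483 TPM in the thymus from 4 or 6 counts, since a short transcript turns few counts into many TPM. Of the 1260 genes higher in the thymus, 172 had under 10 counts there, and 106 of the 1286 genes higher in the spleen.

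Markers of other tissues were found in both libraries. In the thymus, 8 of 12 adipocyte genes were higher than in the spleen, with a summed level of 741 against 125 TPM. Adipoq had 84.9 TPM in the thymus against 1 count, and Ucp1, the protein of brown fat, had 59.2 TPM against none. The ovary of T173F exceeded that of T3F for most of them, and 2 of the 8 remained when the genes called there were left out. Pth, the parathyroid hormone gene, had 300 TPM from 27 counts in the thymus and no count in any other library. Rbpjl and Ptf1a, factors of pancreatic acinar cells that medullary epithelium can also read, stood at 39.0 against 2.86 TPM and at 16.8 TPM against none. The digestive enzyme genes of the same list were at or near 0, so 4 of its 15 genes were compared. In the spleen, 4 of 8 alveolar genes were higher, with Sftpc at 114 TPM against 3.58 TPM and Scgb1a1 at 137 TPM against 4.52 TPM, and 4 of 10 hepatocyte genes, with Alb at 28.3 TPM against none. The part of these in the results above was not tested.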

How the data were processed

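The authors deposited TPM and expected counts per gene for the whole series, as estimated by RSEM from reads aligned with Bowtie 0.12.8, per the submitters' processing notes; the sources used here do not name the reference transcripts. Libraries were polyadenylated RNA, per the labels' protocols. Each column of the deposited TPM table sums to a common total per library, and the deposited expected counts, which need not be whole, gave the depth, floors and counting intervals; 0 value columns lacked a sample. All 18970 genes were read under the symbols of the table, of which 14498 matched the RefSeq table of the species.

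Libraries were taken by their titles, thymus of T173F and spleen of T3F. Genes at 1 TPM or more in either were compared by the log2 ratio of TPM + 1, the pseudocount being 1 TPM, and called at 4-fold. There are no replicates, so no test was run; the same holds for the ovaries. Counting intervals at 95% come from the exact binomial interval of the share of counts in the higher library (scipy 1.17.1), scaled to TPM, and floors are 3 counts.

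The 54 gene lists hold 871 distinct genes: 835 were in the tables, 782 were compared, and 153 were higher in the thymus and 213 in the spleen. The members and lists were chosen with earlier results of these data known. Genes named are, per list, up to 8 called members and up to 4 others by highest TPM, any member of 7 lists (recombinase, T cell receptor, thymic epithelium, B cell, red pulp macrophage, erythroid, positional factors), and over all genes up to 15 per direction by ratio, at 10 TPM and 3 counts or more, and up to 10 by TPM. Other names are marked as chosen after their values were seen.

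Alternatives were other pseudocounts, thresholds and filters, scaling by edgeR 4.0.16 TMM or DESeq2 1.42.0 size factors in R 4.3.3, and TPM totals without the 20 most abundant genes. TPM without the 2 haemoglobin genes, expected counts as CPM, and leaving out genes shared with the ovaries were added after seeing the data. The scripts were tested on simulated data in Python 3.11.15. Sequences and coordinates were not used here. The values of some genes of the lists are not reported here.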

Additional observations from a re-analysis of the deposited data

How the results depend on the processing

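No paired analysis was possible because each organ has 1 library, from different animals, and no replicate could be left out for the same reason. None of the 390 listed or named genes that were called changed sign under the alternatives run. That outcome was nearly fixed in advance and is no check of single genes. Called genes lay at least 4-fold apart, a changed pseudocount cannot turn a sign, and rescaling moved the median log2 ratio from 0.45 to between 0.41 and -0.06. The side with more calls changed for 4 of the 54 lists. Without haemoglobin, or without the 20 most abundant genes, recent emigrant and mature T cell genes went from 3 higher in the thymus and 0 in the spleen to 1 and 3, and interferon response genes from 2 and 0 to 1 and 3. CPM values gave the same for both, and also turned germinal centre genes from 3 and 0 to 0 and 1 and apoptosis genes from 4 and 1 to 1 and 2. With a pseudocount of 5 TPM the total turned from fewer to more genes in the thymus, 668 against 615 in the spleen, with 7 red pulp macrophage genes, and in the ovaries 821 genes higher in T173F and 263 in T3F. A pseudocount of 0.1 TPM gave 788 higher in the T3F ovary. At 8-fold, 500 genes were higher in the thymus and 614 in the spleen. Leaving out the 2 haemoglobin genes, or the 20 most abundant genes of either library, gave 17 red pulp macrophage genes and 14 mitosis genes each. The total calls were then 953 and 1725, and 970 and 1782, with a median log2 ratio of 0.01 in both. CPM values with TMM library sizes gave 635 genes higher in the thymus and 1506 in the spleen, a thymus share of 29.7% and a median of -0.06, with 12 mitosis genes. Factors of TMM and of DESeq2 applied to the TPM left the medians at 0.39 and 0.41. Of 108 counts of list members per direction, those that moved by over 1.5 times numbered 18 without haemoglobin, 22 with a pseudocount of 5 TPM and 24 on CPM values. Depth limits genes at few counts: 252 of the genes higher in the thymus had no count in the spleen, and 412 of those higher in the spleen none in the thymus.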

Other observations

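Some mitochondrial genes differed in the same direction between thymus and spleen and between the ovaries of those animals. They were chosen after their values were seen. The cytochrome oxidase subunit gene mt-Co1 stood at 8.22 TPM in the thymus and 978 TPM in the spleen, and at 11.46 TPM in the ovary of T173F and 1233 TPM in that of T3F. The complex I subunit gene mt-Nd5 stood at 1095 TPM in the thymus and 7652 TPM in the spleen, and at 1266 and 12653 TPM in the ovaries. Of all genes, 1 had every T173F library above every T3F library: mt-Nd4, at 0.511 to 2437 TPM in the 12 libraries of T173F and 0 to 0.371 TPM in the 38 of T3F. The reverse held for 0 genes. Among genes higher in the thymus, 19 had no count in any T3F library, and 34 of those higher in the spleen had none in any T173F library. The first needs 0 counts in 38 libraries and the second in 12, so these numbers cannot be set against each other. The same was not counted over all genes.

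Across 18970 genes, the Spearman correlation of levels was 0.831 between thymus and spleen, 0.824 between thymus and bone marrow and 0.896 between spleen and bone marrow. Spleen and bone marrow share the animal T3F, and genes are not independent replicates. Over all genes at 1 TPM or more in the library, the thymus was the highest of 59 libraries for 2208 and the spleen for 391. Among the called genes, the thymus was the highest for 501 of the 1260 higher there. The spleen was the highest for 189 of the 1286 higher in it, and the bone marrow for 81 of the latter. The kidney artery library of T3F was the highest of the remaining libraries for several lymphoid genes. It had 177 TPM of Ms4a1 against 834 TPM in the spleen, 60.1 TPM of Cd3e against 107.9 TPM, and 2228 TPM of Ccl21a against 2141 TPM.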
